A study of Zea mays subsp. mays with 2 samples.

Results

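The subject is the set of spaced pairs of Opaque11 (O11) sites in maize endosperm: places where exactly 2 O11 binding peaks lie more than 2 kb and at most 10 kb apart, with no further peak within 10 kb of either. Peaks came from chromatin immunoprecipitation followed by sequencing (ChIP-seq), in which DNA bound by a protein is pulled down with an antibody and read. Summits, the positions of highest read coverage in each peak, were sorted along chromosomes 1 to 10 and linked into runs wherever neighbours lay at most 10 kb apart, and the runs of exactly 2 summits with a gap over 2 kb were kept. The members were thus chosen by the summit positions of the list, so the gaps and the isolation of the pairs are descriptions of that choice. This gave 554 pairs with 1108 peaks, out of 8967 peaks on the chromosomes (12.4%) and 9080 in the whole list.

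The wild type library came from kernels at 15 days after pollination, and endosperm chromatin was precipitated with a custom rabbit antibody to O11. The library set against it came from homozygous mutant (o11/o11) kernels of the same age, precipitated with the same antibody. The labels state that these kernels have no O11 protein and name them as the negative control. The labels give the tissue as kernel and the protocol gives endosperm, and neither names the mutant allele nor says how many kernels were pooled. Each genotype had 1 library, so no value carries a replicate error, and peaks of 1 library are not replicates.

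O11 is a basic helix-loop-helix (bHLH) transcription factor of the maize endosperm, the tissue that stores starch and protein in the kernel. Proteins of this family bind DNA as dimers and typically recognise a short palindromic element called the E-box. Loss of O11 gives small, opaque kernels. A factor may bind at several elements around the same gene or at neighbouring genes. Peak positions alone do not tell these arrangements apart, and no genome of the matching build was used here, so the spaced pairs are described by position and signal without gene names or sequence.

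The pileup is the number of reads covering the summit, and the fold enrichment compares that pileup with a local background. Both are the authors' values for each peak. The local background was solved from these values, and it had a lower limit of 1.06 reads. Chromosomal pileups ran from 7 to 453 reads. The list carries no read totals, and library depth is therefore unknown. Intervals on shares are Wilson 95% intervals and those on pileups are exact Poisson 95% intervals. They cover counting error only, take neighbouring peaks as independent, and are therefore too narrow by an unknown amount.

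Spaced pairs were more numerous at short gaps than at long ones, and no later class of 1 kb exceeded the one before it beyond counting error. The median gap between the summits was 4620 bp (95% interval of the median 4261 to 4842), with quartiles of 2934 and 6694 bp. A gap of 2 to 3 kb was found in 146 pairs (26.4%, 22.9 to 30.2%), one of 3 to 4 kb in 91 pairs (16.4%) and one of 4 to 5 kb in 73 pairs (13.2%). The classes then held 60, 52, 38, 50 and 44 pairs up to 10 kb. Whether the decline went on beyond 7 kb was not resolved, since the intervals of the last 3 classes overlapped (5.04 to 9.27% at 7 to 8 kb, 6.91 to 11.7% at 8 to 9 kb and 5.97 to 10.5% at 9 to 10 kb). Exact gaps seldom recurred. Of 534 different gap values, 20 were held by 2 pairs and 0 by 3 or more.

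**Figure D1:**
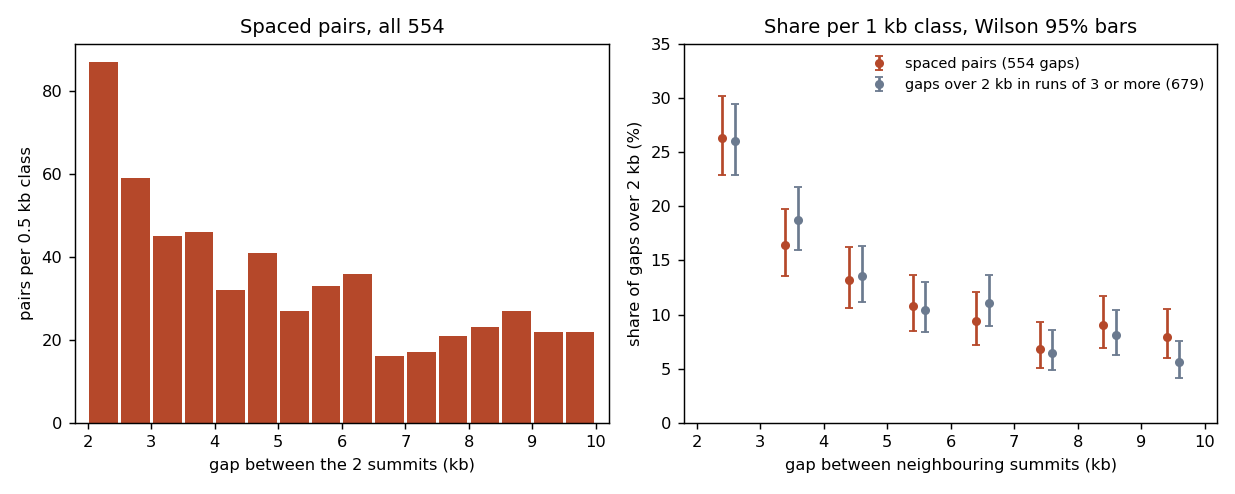
Left, number of spaced pairs (y axis) by the gap between their summits in kb (x axis), in classes of 0.5 kb. Right, share of gaps over 2 kb in percent (y axis) for spaced pairs and for runs of 3 or more summits, with Wilson 95% intervals; the first class holds 26.4% of the spaced pairs and 26.1% of the gaps in runs.

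The spacing of the pairs had nearly the same shape as that inside longer runs of sites. Runs of 3 or more summits contained 679 gaps over 2 kb, with a median of 4403 bp (4165 to 4705) and 26.1% (22.9 to 29.5%) between 2 and 3 kb, and the intervals of the medians overlapped. Gaps of close pairs, the 433 runs of 2 summits at most 2 kb apart, had a median of 1044 bp. Spaced pairs made up 56.1% (53.0 to 59.2%) of all 987 runs of 2. Measured from the end of one peak to the start of the next, the space between partners had a median of 4197 bp and was never under 958 bp, so no pair came from peaks that touch.

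The limits of the rule fall in a continuous distribution. Just inside the lower limit lay a pair on chromosome 3 with a gap of 2004 bp (summits 179163851 and 179165855, pileups 16 and 17) and one on chromosome 8 with a gap of 2007 bp (119464272 and 119466279, pileups 34 and 23). Just outside it were gaps of 2000 bp on chromosome 1 (pileups 29 and 19) and 1995 bp on chromosome 3 (pileups 19 and 23). The pairs with the longest gaps lay on chromosome 7 (9895 bp, pileups 12 and 18) and on chromosome 3 (9879 bp, pileups 22 and 20). The nearest solitary neighbours beyond the upper limit were 10022 and 10027 bp apart, both on chromosome 9.

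Most pairs were well separated from the next site. The nearest summit outside the pair was at a median distance of 52.0 kb (in bp, 51972, with quartiles of 24552 and 109584). The rule sets a floor of 10 kb on this distance, and 106 pairs (19.1%, 16.1 to 22.6%) had an outside summit within 20 kb while 155 (28.0%, 24.4 to 31.9%) had none within 100 kb. The distance to the next site was 11.8 times the gap in the median pair.

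Taken one by one, the members were close to the chromosomal peaks at large in strength. Their median pileup was 15 reads (quartiles 11 and 22), against 16 (12 and 22) over all chromosomal peaks. Their median fold was 5.83 (4.95 and 7.61), against 5.90 (4.95 and 7.75). Members with a fold of 5 or more numbered 819 (73.9%, 71.3 to 76.4%), beside 74.1% of all chromosomal peaks. Those with a fold of 10 or more numbered 129 (11.6%, 9.89 to 13.7%), beside 11.7%. Both shares equal the background within counting error. The median peak length was 353 bp (quartiles 279 and 497), against 354 bp overall.

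Long peaks were somewhat more frequent than among all chromosomal peaks. A length of at least 1000 bp was reached by 38 members (3.43%, 2.51 to 4.67%), against 2.06% (1.79 to 2.38%) of all chromosomal peaks, 1.85% (1.14 to 2.98%) in close pairs and 1.41% (1.12 to 1.76%) among solitary summits. Runs of 3 or 4 had 2.92% (2.11 to 4.04%) and runs of 5 or more 4.08% (2.71 to 6.10%), so long peaks were not peculiar to spaced pairs. At the other end, 137 members (12.4%, 10.6 to 14.4%) had the shortest length in the list, 251 bp, beside 11.4% of all chromosomal peaks.

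The local background was at its lower limit for 416 members (37.5%, 34.7 to 40.4%), beside 35.1% (34.1 to 36.1%) of all chromosomal peaks. The share was 35.6% (32.4 to 38.8%) in close pairs, 46.9% (44.1 to 49.7%) in runs of 3 or 4, 58.6% (54.4 to 62.7%) in runs of 5 or more and 29.4% (28.1 to 30.6%) in solitary summits. Members at the limit had pileups from 7 to 46 with a median of 11 reads, and the other 692 had pileups from 8 to 440 with a median of 18. Their median folds were 5.83 and 5.92, and 10.8% (8.18 to 14.2%) and 12.1% (9.91 to 14.8%) of them had folds of 10 or more, so the fold separated the 2 kinds far less than the pileup did.

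The partners of a pair had similar pileups more often than other combinations of members did. The pileups of the partners were within 1.5 times of each other in 372 of 554 pairs (67.1%, 63.1 to 70.9%), and the higher was 1.33 times the lower in the median pair. Among all 612724 combinations of members that are not partners, which is what a partner drawn without regard to place gives on average, 50.2% were within 1.5 times. A closer comparison is with the facing members of consecutive pairs, the higher-coordinate peak of one pair and the lower-coordinate peak of the next pair on the same chromosome. These were within 1.5 times in 57.2% of 544 cases (53.0 to 61.3%), at a median distance of 1386 kb. For the 224 facing members up to 1 Mb apart (median 321 kb) the share was 61.6% (55.1 to 67.7%), which overlaps the interval of the partners, so the 2 were not resolved at that range. Spearman's rho across pairs was 0.42 for partners, 0.20 for all facing members and 0.24 for those up to 1 Mb apart. These are descriptions over positions that share a library, its depth and their stretch of chromosome, and pairs are not independent replicates.

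**Figure D2:**
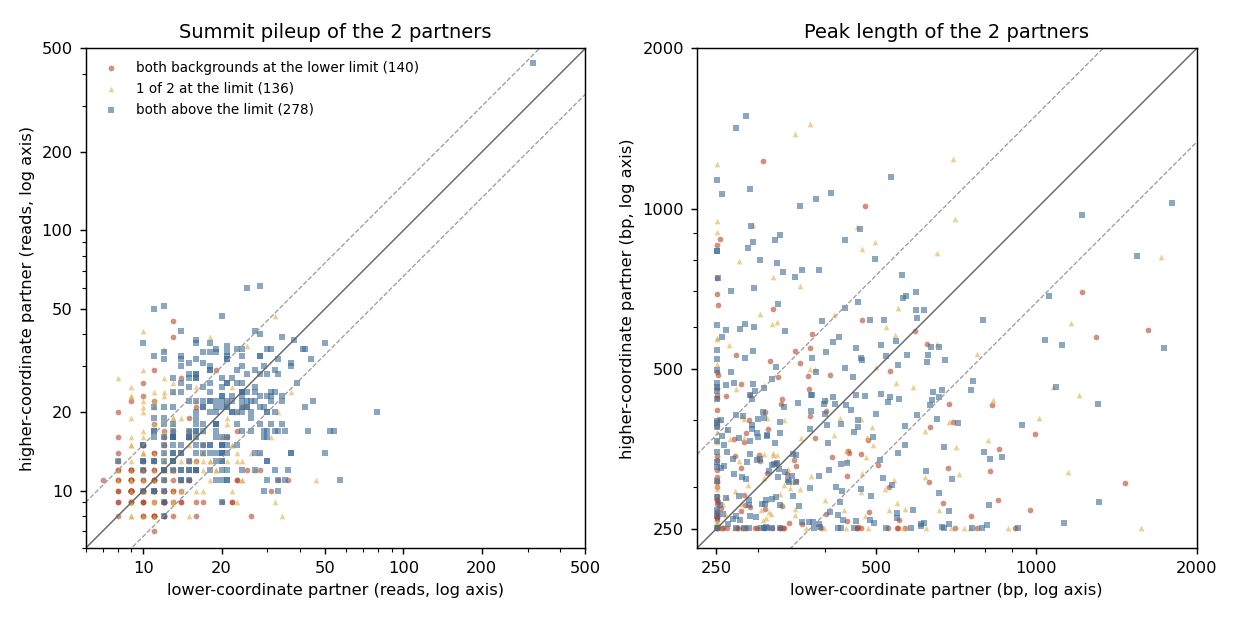
Summit pileup in reads (left) and peak length in bp (right) of the lower-coordinate partner (x axis) and the higher-coordinate partner (y axis) of each of the 554 pairs, on log axes, with colours for the background of the partners; the solid line is equality and dashed lines mark a factor of 1.5. Pileups follow the line loosely (rho 0.42), lengths do not (rho 0.04), and the pair at the upper right of the left panel is the high-background pair on chromosome 1.

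Peak lengths of partners did not share this likeness. They were within 1.5 times in 318 pairs (57.4%, 53.2 to 61.5%), beside 54.9% of all other combinations and 56.8% (52.6 to 60.9%) of facing members, and rho was 0.04. The fold was within 1.5 times in 68.1% of pairs (64.1 to 71.8%), beside 62.7% of other combinations and 64.2% (60.0 to 68.1%) of facing members, with a rho of 0.10. Within a pair the peak with the higher pileup was also the longer in 345 of the 507 pairs that differ in both (68.0%, 63.9 to 72.0%). This share was not set beside other combinations, so it is not shown to be particular to partners.

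The background of the partners was alike as well, and its part in the likeness of pileups was not tested beyond the split given here. In 418 pairs (75.5%, 71.7 to 78.9%) both partners were at the lower limit or both were above it, beside 53.0% of all other combinations and 65.3% (61.2 to 69.1%) of facing members. The backgrounds themselves had a rho of 0.58 between partners and 0.29 between facing members. In the 140 pairs with both partners at the limit, pileups were within 1.5 times in 76.4% (68.8 to 82.7%), beside 72.4% of the other combinations of those same peaks and 81.8% (73.6 to 87.9%) of facing members that were both at the limit, and rho was 0.03. In the 278 pairs with both partners above the limit, the share was 64.7% (59.0 to 70.1%), beside 53.1% of other combinations and 50.2% (44.0 to 56.4%) of facing members, and rho was 0.25. Partners thus exceeded both comparisons in pairs above the limit and not in pairs at it, where the pileups span a narrow range. The facing members above the limit lay a median of 1827 kb apart (rho -0.13), and the partners above it 4.52 kb. Facing members up to 1 Mb apart were not split by background, so the part of distance in this excess was not tested. With the background subtracted from the pileup, 61.4% of pairs (57.3 to 65.3%) were within 1.5 times, beside 47.5% of other combinations and 53.3% (49.1 to 57.5%) of facing members. For facing members up to 1 Mb apart the share was 56.7% (50.1 to 63.0%). Both intervals of facing members overlap that of the partners, so after subtraction partners were not resolved from them.

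**Figure D3:**
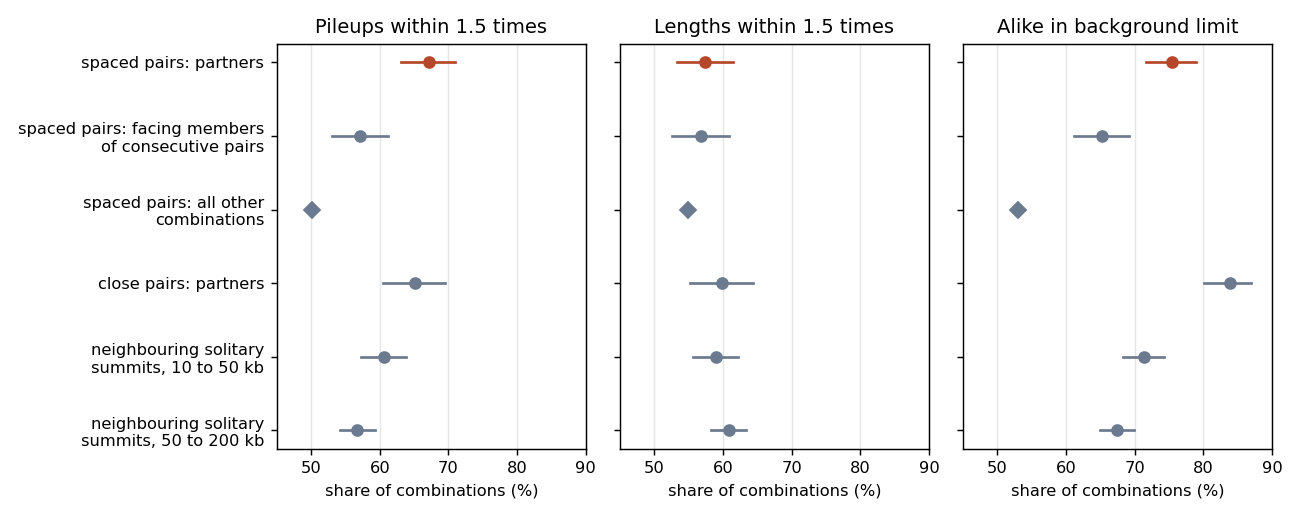
Share of combinations, in percent (x axis), that were within 1.5 times in pileup (left) or length (middle), or alike in being at or above the background limit (right), for partners of spaced pairs and 5 other ways of combining peaks (y axis). Bars are Wilson 95% intervals and diamonds are full enumerations; partners of spaced pairs stand at 67.1%, 57.4% and 75.5%.

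Likeness in pileup was close to that of close pairs. Among neighbouring solitary summits it was lower at the longer distance, more clearly in rho than in the share within 1.5 times. Partners of close pairs were within 1.5 times in 65.1% of 433 pairs (60.5 to 69.5%), with a rho of 0.38. Neighbouring solitary summits 10 to 50 kb apart were within 1.5 times in 60.6% of 872 cases (57.3 to 63.7%), with a rho of 0.35, and those 50 to 200 kb apart in 56.7% of 1426 (54.1 to 59.3%), with a rho of 0.21. The intervals of these 2 solitary shares overlap, and rho carries no interval here. Pileups of solitary neighbours differed by over 2 times in 17.8% of cases at 10 to 50 kb and in 22.6% at 50 to 200 kb. Facing members up to 1 Mb apart, another class of peaks, had a share of 61.6% (55.1 to 67.7%) and a rho of 0.24. Inside the spaced pairs the share was 73.8% (67.9 to 79.0%) at gaps of 2 to 4 kb, 57.9% (49.4 to 65.9%) at 4 to 6 kb, 66.7% (56.4 to 75.5%) at 6 to 8 kb and 63.8% (53.8 to 72.8%) at 8 to 10 kb. The first class stood above the second beyond their intervals, and the order of the others was not resolved. Gap classes differed little in strength, with median pileups of 15, 15, 16 and 14 reads and with 12.0%, 12.4%, 12.2% and 9.04% of members at a fold of at least 10.

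Neither side of a pair was favoured beyond counting error. The higher-coordinate partner had the higher pileup in 259 pairs (46.8%, 42.6 to 50.9%), the lower-coordinate partner in 252 (45.5%, 41.4 to 49.7%), and 43 pairs had equal pileups. Of the 103 pairs with a fold of at least 10 in 1 partner, that partner was at the higher coordinate in 51 (49.5%, 40.1 to 59.0%).

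Strong sites, those with a fold of 10 or more, are 11.7% of all chromosomal peaks, and the counts of pairs are to be read against that share. Neither partner reached a fold of 10 in 438 pairs (79.1%, 75.5 to 82.2%), 1 partner did in 103 (18.6%, 15.6 to 22.0%), and both did in 13 (2.35%, 1.38 to 3.97%). Of the 129 members whose partner had a fold of at least 10, 26 reached it themselves (20.2%, 14.1 to 27.9%), against 103 of the 979 members whose partner was below 10 (10.5%, 8.75 to 12.6%). The 26 are both members of those 13 pairs, so each pair is counted from both sides and the interval is too narrow. Chromosome 1 held 7 of the 13 pairs and 26 of the 129 strong members, and no other chromosome held more than 2 of the 13. The contrast thus leaned on chromosome 1, and it is not shown to be a general trait of partners. At a fold of 5 the same comparison gave 614 of 819 (interval 71.9 to 77.8%) against 205 of 289 (70.9%, 65.5 to 75.9%), with overlapping intervals, so the contrast was not seen at the lower threshold. In pileup, both partners had at least 20 reads in 96 pairs (17.3%), 1 did in 170 (30.7%) and neither did in 288 (52.0%), where 32.7% of the members and 34.7% of all chromosomal peaks had at least 20.

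The 10 pairs with the largest fold in their weaker partner were, for the most part, on chromosome 1, which held 7 of them and 7 of the 13 pairs with both folds at 10 or above. These counts are to be read against its 71 of all 554 pairs. Among single peaks, chromosome 1 had 26 of the 129 strong members and 165 of all 1046 strong sites. First among the 10 pairs was one at 87.9% of the length of chromosome 1, with peaks from 264577269 to 264577862 and from 264579325 to 264580020. Its pileups were 41 reads (29.4 to 55.6) and 35 reads (24.4 to 48.7), its folds 18.6 and 17.5, and its summits were 2074 bp apart. Next came a pair with summits at 156728441 and 156735830 on chromosome 9, 7389 bp apart, with pileups of 50 (37.1 to 65.9) and 37 (26.1 to 51.0) and folds of 18.4 and 16.5. Its second peak is the last one on that chromosome, and the nearest summit outside the pair was 480945 bp away. Then came a pair with summits at 16788005 and 16791409 on chromosome 1, with pileups of 32 and 47 and folds of 16.0 and 23.1.

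Of the 5 other strong pairs of chromosome 1, 4 differed more in length than in pileup. The choice by fold bears on pileup and not on length, so it sets this contrast in part. Over all 554 pairs the median ratios were 1.33 for pileup and 1.37 for length. The pair with summits at 197226751 and 197228905 had peaks of 1794 and 1025 bp, the first being the longest member, with only 958 bp between them. Its pileups were 37 and 31 reads and its folds 17.0 and 13.8. At 12507960 and 12511424 the lengths were 1115 and 555 bp and the pileups 31 and 35. At 61138092 and 61140848 they were 1162 and 611 bp, with pileups of 25 and 36. These 3 pairs had length ratios of 1.75, 2.01 and 1.90 and pileup ratios of 1.19, 1.13 and 1.44. The remaining strong pairs of this chromosome, at 219115124 and 219123849 and at 30263390 and 30265753, had gaps of 8725 and 2363 bp and weaker folds of 11.4 and 11.3. Their length ratios were 1.12 and 1.41, beside pileup ratios of 1.38 and 1.18.

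Chromosomes 5 and 6 held 1 of the 10 each. On chromosome 5 the summits at 77466485 and 77469602 had pileups of 34 (23.5 to 47.5) and 39 (27.7 to 53.3), the same background of 1.54 reads and folds of 13.8 and 15.7. The chromosome 6 pair, at 165542801 and 165549505, had pileups of 33 and 28 and folds of 12.3 and 12.1. The pileup intervals of the partners overlapped in all 10 of these pairs. A choice by the weaker fold favours pairs with 2 strong partners, so this overlap is no measure of how alike partners are.

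Other pairs joined a strong site to a weak one. The largest ratio of pileups, 5.18, was on chromosome 2, where a summit at 103675546 had 57 reads (43.2 to 73.9) and a fold of 15.9, and its partner 2939 bp away at 103678485 had 11 reads (5.49 to 19.7) and a fold of 4.35. A chromosome 1 pair was next: the summit at 230779896 had 11 reads and that at 230782274 had 50 reads (37.1 to 65.9), a ratio of 4.55, with folds of 5.71 and 15.9. A pair on chromosome 2, at 40974135 and 40980951, had 34 and 8 reads, a ratio of 4.25, but folds of 5.58 and 4.38, over backgrounds of 5.27 and 1.06 reads. A further chromosome 2 pair, at 213198083 and 213200330, had the same ratio of 4.25, with 12 and 51 reads and folds of 5.99 and 24.0, the second being the highest fold of any member. It ties for the last place under the rule and is named after its values were seen. Pileups differed by over 2 times in 78 pairs (14.1%).

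The pair with the highest summed pileup on each chromosome, among those with a background under 20 reads, often joined sites of unequal fold. On chromosome 6 the summit at 91400095 had 79 reads (62.5 to 98.5) with a fold of 23.3 and the largest −log10 q of the members, 82.6, and its partner 4623 bp away had 20 reads (12.2 to 30.9) and a fold of 7.25. Chromosome 1 followed, where the summits at 98430390 and 98433356 had 28 and 61 reads and folds of 4.62 and 18.0. On chromosome 3 those at 3822644 and 3826692 had 25 and 60 reads and folds of 6.65 and 16.2. Chromosome 4 had 37 and 30 reads at 156675604 and 156679170 and folds of 6.06 and 12.5, so the lower pileup had the higher fold. Chromosome 7 had 38 reads in both partners, at 132421781 and 132424603, with folds of 6.42 and 9.29. Chromosome 8 had 24 and 35 reads at 23641446 and 23643550, and chromosome 10 had 33 and 32 reads at 65437183 and 65440198. On chromosomes 2, 5 and 9 this rule named pairs already described.

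A single pair lay on a high background. Its summits at 234545624 and 234549208 on chromosome 1 had pileups of 316 (282 to 353) and 440 (400 to 483) reads over backgrounds of 201 and 269 reads, with folds of 1.57 and 1.63. The shares within 1.5 times were 67.1% for pileup and 57.3% for length without it.

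Spaced pairs were most frequent toward the high-coordinate end of the chromosomes, as were the chromosomal peaks at large. Each chromosome was divided into 5 equal parts of the length up to its last peak, where an even spread would give 20% per part. The last part held 221 pairs (39.9%, 35.9 to 44.0%), the fourth 130 (23.5%, 20.1 to 27.2%), the middle 59 (10.6%, 8.35 to 13.5%), the second 43 (7.76%, 5.81 to 10.3%) and the first 101 (18.2%, 15.2 to 21.7%). Of all chromosomal peaks, the last part held 36.4%, the fourth 22.6%, the middle 11.9%, the second 10.2% and the first 18.9%, each inside the interval of the pairs. The last part held over 20% of the pairs on 10 of 10 chromosomes, from 28.6% on chromosome 5 to 52.8% on chromosome 7. The middle part held under 20% on 10 of 10. Both counts were the same for all chromosomal peaks.

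**Figure D4:**
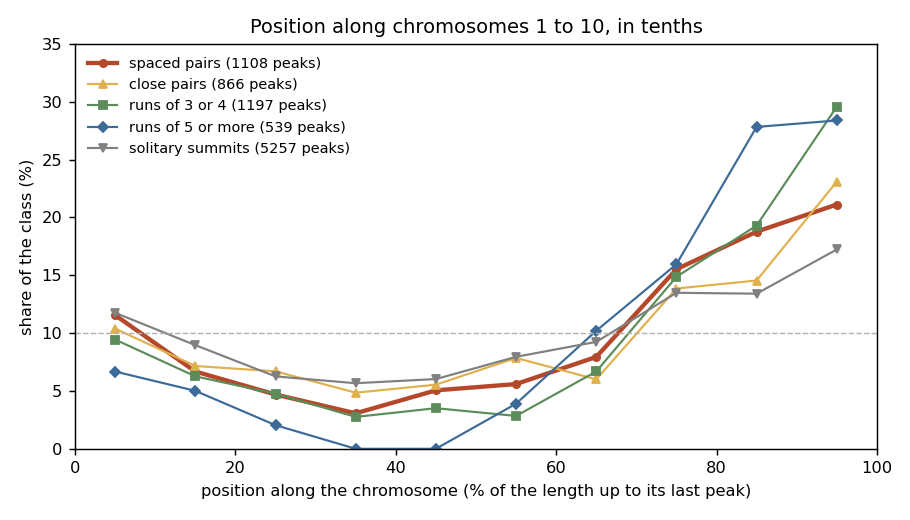
Share of each class of peaks, in percent (y axis), by position along the chromosome in 10 equal steps of the length up to the last peak (x axis), for spaced pairs and 4 other classes; the dashed line is an even 10% spread. Spaced pairs run from a low of 3.07% in the step from 30 to 40% to 21.1% in the last step.

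In the last and the second part this profile lay between those of solitary summits and of runs of 5 or more. Among peaks, the last part held 39.9% of the members (37.0 to 42.8%), 37.6% of close pairs (34.5 to 40.9%), 48.9% of runs of 3 or 4 (46.0 to 51.7%), 56.2% of runs of 5 or more (52.0 to 60.3%) and 30.6% of solitary summits (29.4 to 31.9%). The second part held 7.76% of the members (6.33 to 9.49%), 11.5% of close pairs (9.59 to 13.8%) and 11.9% of solitary summits (11.1 to 12.8%). It held 7.52% (6.16 to 9.15%) of runs of 3 or 4 and 2.04% (1.14 to 3.62%) of runs of 5 or more. The low share there was thus not particular to spaced pairs. Members made up 13.5% (12.4 to 14.7%) of the peaks in the last part and 9.41% (7.68 to 11.5%) of those in the second, so the share of peaks in spaced pairs varied much less along the chromosome than the number of pairs did. Peaks are denser in the last part, and how far density alone sets the number of pairs there was not tested.

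Chromosomes departed from this profile in places. Chromosome 5 had 18 of its 56 pairs (32.1%) in the second part, while chromosomes 3, 4, 7 and 8 had 0 there. Chromosome 8 had 26 of 55 pairs (47.3%) in the fourth part and 22 (40.0%) in the last. The gap did not follow position, with medians of 4288 bp (3592 to 5134) in the first part, 4829 (3684 to 6421) in the second, 3769 (3010 to 4733) in the middle, 4841 (4078 to 5632) in the fourth and 4717 (4107 to 5182) in the last, all overlapping. The middle part had the lowest median pileup, 12 reads, against 14.5 to 17 elsewhere, and 53.4% (44.4 to 62.1%) of its members were at the background limit, against 32.3 to 38.4% in the other parts. Its 59 pairs included 19 on chromosome 2 and 13 on chromosome 9. Of the latter, 9 lay between 65 and 70 Mb, with all their members at the limit. The same values for all chromosomal peaks of the middle part were not compared here.

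Chromosome 2 had the highest density of spaced pairs, 0.442 per Mb (exact Poisson interval 0.362 to 0.535) from 105 pairs, followed by chromosome 9 with 0.427 per Mb (0.331 to 0.543) from 67. Chromosome 4 had the lowest, 0.120 per Mb (0.0803 to 0.172) from 29 pairs. The others ran from 0.201 on chromosome 10 to 0.325 on chromosome 6. Chromosomes 2 and 9 also had the largest shares of their own peaks in spaced pairs, 15.5% (13.7 to 17.5%) and 16.4% (14.0 to 19.1%), above the overall 12.4%. Chromosome 4, with 9.72% (7.59 to 12.4%), was lowest, and its interval reaches the overall value. The share of members at the background limit was 56.2% on chromosome 2 (49.4 to 62.7%), 40.3% on chromosome 9 (32.4 to 48.8%), 48.2% on chromosome 8 and 5.17% on chromosome 4 (1.77 to 14.1%), and its part in these densities was not tested. The share over all peaks of each chromosome was not compared here, so these values do not set spaced pairs apart from the other peaks there.

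**Figure D5:**
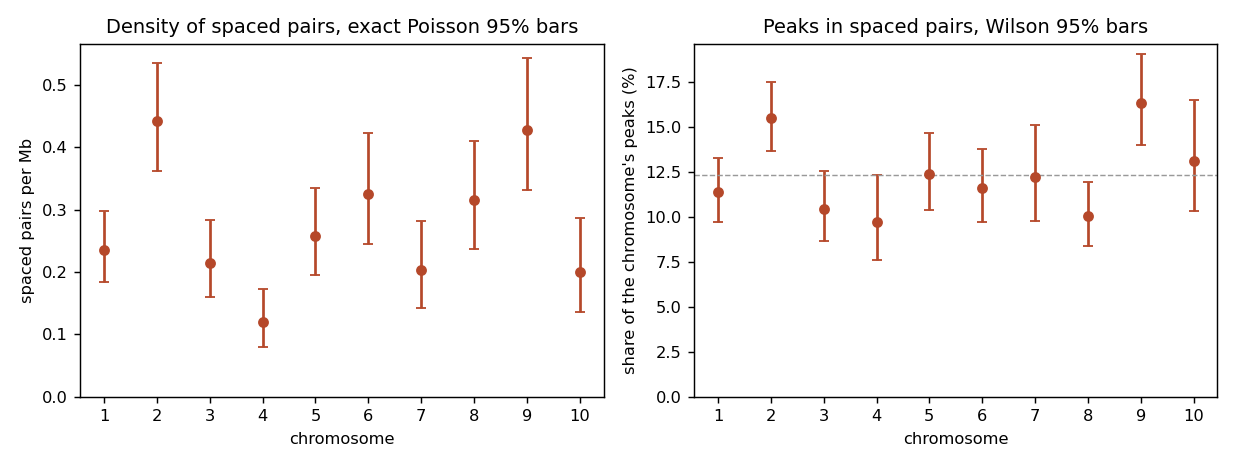
Left, spaced pairs per Mb (y axis) on chromosomes 1 to 10 (x axis), with exact Poisson 95% intervals. Right, share of each chromosome's peaks that belong to spaced pairs, in percent, with Wilson 95% intervals and a dashed line at the overall 12.4%; chromosomes 2 and 9 stand highest in both panels.

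The share of strong members on a chromosome followed that of its peaks within counting error in the cases compared. On chromosome 1, 26 of the 142 members had folds of 10 or more (18.3%, 12.8 to 25.5%), beside 13.2% of all its peaks, and on chromosome 7 this held for 3 of the 72 (4.17%, 1.43 to 11.5%), beside 9.83%. Chromosome 2, the richest in spaced pairs, had 16 of 210 (7.62%, 4.74 to 12.0%), beside 149 of all its 1355 peaks, a share inside that interval, and its median member had 12 reads against 17 on chromosome 1.

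Pairs were spread over many places. In windows of 5 Mb, 232 of 416 held at least 1 spaced pair, 84 held exactly 1, and 28 held 5 or more, with 167 pairs among them. The fullest was 65 to 70 Mb on chromosome 9, well inside the chromosome at 43.1% of its length, with 9 pairs that held 23.4% of the 77 peaks there. Gaps in it ran from 2074 to 9771 bp and folds from 4.38 to 14.6, and 18 of its 18 members had a background at the lower limit. A window from 155 Mb on chromosome 8 had 8 pairs with 8 members at the limit, and one from 150 Mb on chromosome 9 had 8 pairs with 4 members at the limit. Chromosomes 1, 8 and 10 each had a window with 7 pairs, from 260, 130 and 145 Mb onward, and that of chromosome 1 holds the pair with the largest weaker fold.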

How the data were processed

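The members and the comparisons were chosen with earlier results of these data known. The submitters' processing notes list Bowtie2 and MACS2 2.0.10 and no settings. For the genome build, the sources used here give no name, and coordinates are printed as the deposited files give them, counted from 1. Per the file headers, each peak has a pileup (a coverage signal at the summit), a −log10 p-value, a −log10 q-value and a fold enrichment, which is a linear ratio. The lowest deposited −log10 q was 2.17. All 9080 summits matched the peak list. The labels name the mutant as the control, and values are read as wild type over mutant.

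The fold was taken as pileup plus 1 over background plus 1, and the background was solved from it. The Poisson tail computed from it differed from the deposited −log10 p by at most 0.000209. A background within 0.001 of the lowest was called at its limit. Runs were built with pandas 2.3.3, and shares carry Wilson intervals from statsmodels 0.14.6. No p-value was computed, since each genotype had 1 library. The procedure was tested on simulated positions.

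Named pairs were the 10 with the largest fold in the weaker partner, the 3 with the largest pileup ratio, the pair with the highest summed pileup per chromosome (backgrounds under 20 reads), those nearest the limits of the rule, and the fullest 5 Mb windows. Alternatives were stricter lists, linking at 5 or 20 kb, a lower limit of 3 kb, gaps between peak edges and another chromosome length. Sequence and genes near the pairs were not analysed here.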

Additional observations from a re-analysis of the deposited data

How the results depend on the processing

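Of 65 recomputed values, 48 stayed within the interval of the reported value (for counts, within 1.5 times) and 17 moved. With the peaks whose −log10 q reached the median, members numbered 466, the median gap was 4250 bp, the middle part held 3.86% of pairs, 26.6% of members had a fold of at least 10 and 26.4% were at the background limit. With a fold of at least 5 the median gap was 4252 bp, the middle part held 6.70% and the share at a fold of 10 was 16.6%. With a pileup of at least 20, chosen after seeing the data, members numbered 294, pileups were within 1.5 times in 78.2%, backgrounds were alike in 88.4%, the middle part held 3.40%, 36.7% had a fold of at least 10 and 12.6% were at the limit. Each stricter list removes weak peaks by construction. The median gap was 3117 bp with linking at 5 kb, 6370 bp at 20 kb and 5655 bp with gaps over 3 kb, which those limits set in part. The share of pairs with lengths within 1.5 times and the share in the last part did not move under any alternative run. No paired analysis was possible because there was 1 library per genotype. How the pairs depend on depth was not tested.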

Other observations

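The same rule applied outside chromosomes 1 to 10 gave 2 further pairs, which are not among the 554. On the mitochondrial sequence, summits at 485864 and 489162 lay 3298 bp apart, with pileups of 178 and 145 reads over backgrounds of 80.9 and 101.1 reads and folds of 2.19 and 1.43. On unplaced scaffold 505, summits at 110343 and 116199 lay 5856 bp apart, with pileups of 103 and 57 reads over backgrounds of 34.3 and 13.9 reads and folds of 2.95 and 3.89. All 4 folds are under the lower quartile of the members, 4.95.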
